A study of Rattus norvegicus with 6 samples.

Results

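The IL-6 family was followed here through 9 genes, taken by name from the deposited table of 34156 genes: the ligands Il6, Lif, Clcf1 and Il11, and the receptor subunits Il6r, Il11ra1, Il6st, Osmr and Lifr. They were read in 6 RNA-seq libraries of rat RA-FLS, fibroblast-like synoviocytes labelled as wild type and as rheumatoid arthritis, which a supplier provided as a cell stock. The 3 libraries of the TNF-α group came from cells given 10 ng/mL TNF-α, a cytokine of joint inflammation, and the 3 of the TNF-α+EMO group from cells given the same TNF-α together with 80 μmol/L emodin (EMO), an anthraquinone of rhubarb. All 6 therefore carry TNF-α, and no untreated cells and no cells with EMO alone were analysed here, so a level in the TNF-α group does not say what TNF-α did. The labels give day 5 for every library, whereas the study's methods describe a shorter incubation. The study's methods call the 3 samples per condition biological replicates.

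Cytokines of this family share gp130, the signal transducer encoded by Il6st. IL-6 first binds IL-6Rα (Il6r) and IL-11 binds IL-11Rα (Il11ra1), and these complexes then pair gp130 with itself, whereas LIF pairs gp130 with the LIF receptor (Lifr) and oncostatin M pairs it with its own receptor chain (Osmr). Paired chains activate JAK kinases and STAT3, which among other genes switches on Socs3, a feedback inhibitor of gp130. In the synovium, fibroblasts are a known source of IL-6 and LIF, and IL-6 and its receptor are drug targets in rheumatoid arthritis.

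The libraries held 16813322 to 17794455 counts on genes, so that 3 counts, taken as the floor of detection, corresponded to 0.169 to 0.178 CPM (counts scaled to a common library size). A TNF-α+EMO library, replicate 3, stood further from the other libraries of its group than any TNF-α library did, with a chi-square per gene of 25.0 against replicate 1, where sampling noise alone gives about 1. The labelled cell type was checked against 11 fibroblast markers, of which 7 had enough counts to test, and the check came out differently in the groups. Under TNF-α alone, Col1a1 and Col3a1, which encode fibrillar collagens, Pdgfra, a receptor of platelet-derived growth factor, and the cadherin gene Cdh11 were abundant, whereas Thy1 reached at most 7 counts, Prg4 at most 4 and Pdpn at most 1. With EMO, 6 of the 7 tested markers were lower at an adjusted p under 0.05 by edgeR, where 80.9% of all tested genes passed in either direction. Lum, among these 6, and Dcn had enough counts to test only in the group where they were high, so their directions come with the filter. Dcn was higher, with 0, 4 and 1 counts under TNF-α alone and 33, 24 and 26 with EMO. Normalized counts of Col3a1 were 436-fold lower, those of Pdgfra 96.4-fold and those of Cdh11 73.6-fold, and Lum went from 235, 263 and 244 counts to 0 in each library. Vim, found in mesenchymal cells in general, fell less (log2 fold change -0.92). Most of the tested fibroblast markers were thus strongly reduced in the TNF-α+EMO libraries. A change within the same cells and a different make-up of cells cannot be told apart for any fold change given here. The summed marker level was 3310 to 3522 CPM per kb in the TNF-α group and 1013 to 1094 with EMO. Vim set most of the sum with EMO, at 972 to 1053 CPM per kb, and was at 1879 to 1961 in the TNF-α group. Col1a1 was at 1001 to 1193 CPM per kb in the TNF-α group and at 36.63 to 37.55 with EMO.

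Markers of other cells were mixed. The macrophage markers Ptprc, Adgre1 and Tyrobp, the 3 T cell markers, the endothelial marker Kdr and the epithelial markers Epcam and Krt18 were at the floor in every library. The endothelial markers Cdh5 and Tek had 3 to 11 and 2 to 18 counts, too few to test. Likewise too low were Cdh1, Csf1r and Aif1, with at most 6, 5 and 4 counts. Krt8, a keratin gene on the epithelial list, was high, with 10630, 10193 and 11087 counts under TNF-α alone and 1908, 2099 and 2262 with EMO (log2 fold change -2.28), and it set the epithelial sum of 297 to 322 and 58.7 to 68.8 CPM per kb. The macrophage sum was 43.2 to 46.4 and 28.6 to 30.9 CPM per kb. Cd14 fell (-1.10), while Cd68 rose (0.75) and Itgam rose from 1, 0 and 0 counts to 12, 10 and 14. Itgam had enough counts to test only with EMO. Mitochondrially encoded mRNA made up 3.33% to 3.55% of counts in the TNF-α group and 0.191% to 0.214% with EMO. Mitochondrial rRNA went the other way, at 0.021% to 0.024% in the TNF-α group and 0.172% to 0.185% with EMO. The part of these shifts in the results for the IL-6 family was not tested.

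With EMO, the ligand genes Lif and Il6 rose, and the receptor genes Il6st, Osmr and Il11ra1 fell. Clcf1 was slightly higher, Il6r did not pass the test, and Il11 and Lifr were too low to test. A gene is called a DEG where the adjusted p was under 0.05 and the absolute log2 fold change over 1 (edgeR's quasi-likelihood test, Benjamini-Hochberg adjustment over the 13614 genes that reached 10 counts in 3 or more libraries; SE is the standard error). Of the 9 members, 7 were tested, 6 passed at an adjusted p under 0.05 and 5 were DEGs, 2 higher and 3 lower. Among all tested genes, 80.9% passed at an adjusted p under 0.05 and 47.3% were DEGs, with 19.5% higher and 27.8% lower, so a member that differs is not by itself unusual in these libraries. The 7 tested members had a median log2 fold change of 0.09, and all tested genes one of -0.01, and the median absolute value over all tested genes was 0.96. In bulk RNA, fewer cells that express a gene and less RNA per cell cannot be told apart. A two-sided exact permutation p for 3 samples against 3 has 0.1 as its smallest value, so the p-values given rest on the spread that edgeR shares across genes.

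**Figure D1:**
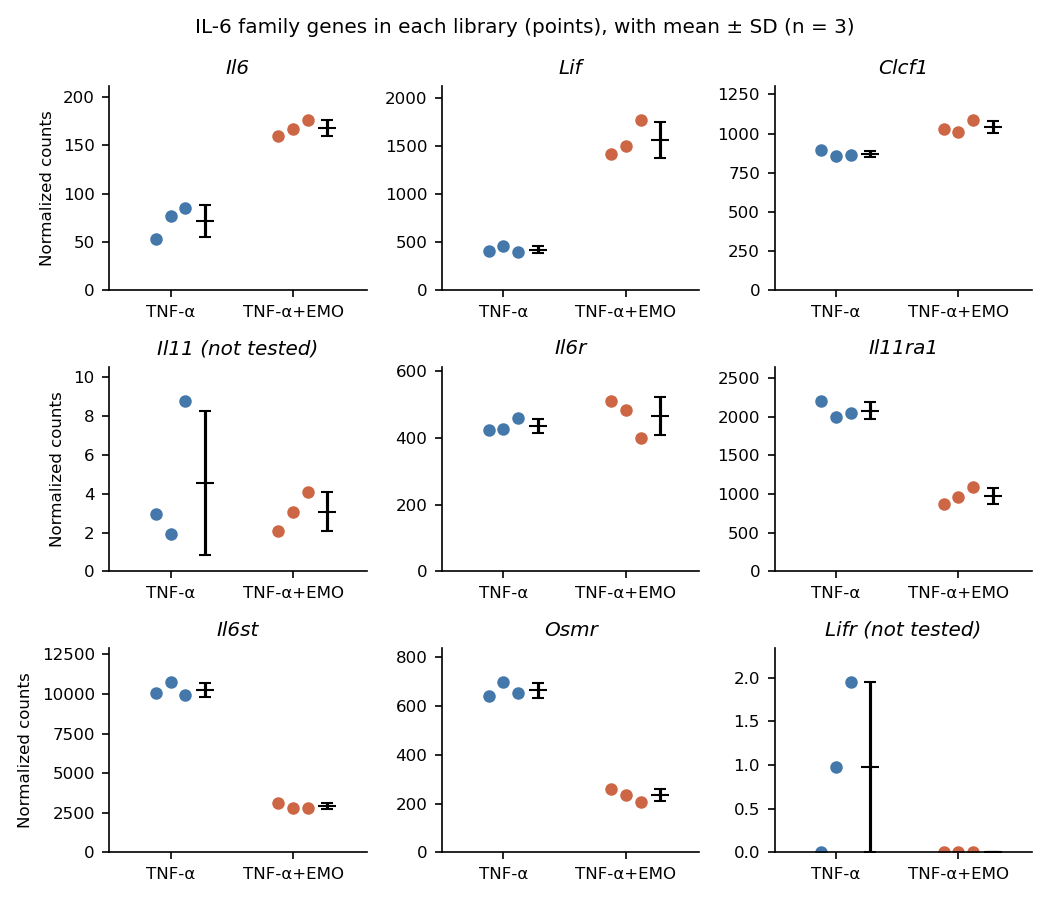
Normalized counts (y axis, from 0, counts scaled by TMM to the mean library) of each of the 9 IL-6 family genes in the 3 TNF-α and 3 TNF-α+EMO libraries, with points for libraries and bars for the mean ± SD. The groups are apart for Il6, Lif, Clcf1, Il11ra1, Il6st and Osmr and overlap for Il6r, Il11 and Lifr.

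The ligands are described first. Il6 (ENSRNOG00000010278, chromosome 4, 3043231 to 3047807, plus strand, in the deposited coordinates on Rnor_6.0) encodes interleukin-6. It had 54, 79 and 87 counts in TNF-α replicates 1 to 3 and 155, 163 and 173 in TNF-α+EMO replicates 1 to 3. All 3 TNF-α+EMO libraries lay above all 3 TNF-α libraries, and the relative spread was wider in the TNF-α group. Its normalized count was 71.6 ± 16.6 in the TNF-α group and 168 ± 8.21 with EMO (SD, n = 3 each), a 2.34-fold increase, or 1.23 in log2 units (SE 0.20, 95% interval 0.79 to 1.66, edgeR adjusted p = 0.00015). The lower end of that interval lies under the threshold of 1, and without TNF-α replicate 1 the log2 fold change was 0.98, so that Il6 passed the test but was no longer a DEG.

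Lif (ENSRNOG00000007002, chromosome 14, 84482674 to 84500642, plus strand) encodes leukaemia inhibitory factor. It had 417, 475 and 406 counts under TNF-α alone and 1380, 1470 and 1742 with EMO added. The groups lay far apart, with the lowest library with EMO well above the highest without it. The normalized count rose from 423 ± 35.8 to 1567 ± 184 (SD, n = 3 each), 3.71-fold, or 1.89 in log2 units (SE 0.10, edgeR adjusted p = 1.8e-08). In the main fit this was the largest absolute change among the 7 tested members, and it exceeded that of 75.6% of all tested genes. Il6st was close (-1.82, SE 0.07), and its absolute change was the larger in some alternative fits. With library totals alone, Il6st was at -1.93 and Lif at 1.78.

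Clcf1 (ENSRNOG00000018752, chromosome 1, 219468675 to 219472654, plus strand) encodes cardiotrophin-like cytokine factor 1, a ligand of the family that also signals through gp130. It had 910, 882 and 884 counts under TNF-α alone and 996, 989 and 1066 with EMO. The groups did not overlap, but they lay close together. The normalized counts of 871 ± 18.5 and 1042 ± 39.0 (SD, n = 3 each) differed 1.2-fold, or 0.26 in log2 units (SE 0.07, 95% interval 0.10 to 0.41, edgeR adjusted p = 0.0054). This call was lost without any one of the TNF-α libraries (adjusted p from 0.055 to 0.095) and with library totals alone in place of TMM (adjusted p = 0.074).

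Il11 (ENSRNOG00000017386, chromosome 1, 72635267 to 72643255, plus strand) encodes interleukin-11. It had 3, 2 and 9 counts under TNF-α alone and 2, 3 and 4 with EMO, too few to test. The ratio of the summed counts, 9 with EMO against 14 without and corrected for library size, was 0.674, with an exact binomial interval of 0.257 to 1.67 that covers counting error only. A difference within that interval was not detectable at this depth. Molecular identifiers are not mentioned in the sources used here, so counts may include PCR copies and the real error may be larger.

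The promoter of Il6 is printed here because factors known to act there are among the genes described further on. That of Osmr is printed because it alone held a match among the receptor genes for which an entry was found. Both are the 250 bases before the RefSeq start site in GRCr8, 5′ to 3′ on the gene's strand. Entries were found for 6 of the 9 members, Il6, Il11, Il6r, Il6st, Osmr and Lifr, and not for Lif, Clcf1 and Il11ra1. These motifs were searched on both strands: the NF-κB consensus, the CRE (TGACGTCA), AP-1 (TGANTCA), C/EBP (TTGCNNAA) and STAT (TTCNNNGAA). Capitals mark the matches, which do not overlap each other. Il6 lies on the minus strand at chr4:5894576-5894825 in GRCr8, and Osmr on the minus strand at chr2:57688562-57688811.
Il6: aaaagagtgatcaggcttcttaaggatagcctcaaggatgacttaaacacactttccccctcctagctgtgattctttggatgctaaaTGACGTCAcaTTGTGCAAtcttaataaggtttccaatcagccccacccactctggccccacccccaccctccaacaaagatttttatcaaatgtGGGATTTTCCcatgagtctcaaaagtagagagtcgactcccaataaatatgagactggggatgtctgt
Osmr: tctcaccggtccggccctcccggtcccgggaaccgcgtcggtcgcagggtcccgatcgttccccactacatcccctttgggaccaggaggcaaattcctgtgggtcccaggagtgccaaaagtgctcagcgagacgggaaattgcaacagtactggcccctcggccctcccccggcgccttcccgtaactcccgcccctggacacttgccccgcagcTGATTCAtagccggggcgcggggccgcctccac

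In the Il6 promoter, the CRE (TGACGTCA) begins 162 bases before the start site, the C/EBP match (TTGTGCAA, on the opposite strand) 152 bases and the NF-κB match (GGGATTTTCC) 68 bases before it. In the Osmr promoter, an AP-1 match begins 33 bases before the start. Of 33469 promoters of the same length, 3.54% hold the NF-κB consensus, 1.59% the CRE, 9.22% the C/EBP motif, 6.34% the AP-1 motif and 7.67% the STAT motif. No STAT match was found in the 6 members' windows, and of the other 4 members only Il11 had any match, to AP-1. A match describes letters and not binding.

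Of the receptor subunits, Il6st (ENSRNOG00000013963, chromosome 2, 44289393 to 44314944, plus strand), the shared transducer gp130, had the most counts. It had 10251, 11020 and 10229 counts under TNF-α alone and 3044, 2760 and 2727 with EMO. Its lowest TNF-α library was more than 3 times as high as its highest TNF-α+EMO library. The normalized count fell from 10260 ± 428 to 2914 ± 197 (SD, n = 3 each), 3.52-fold lower, or -1.82 in log2 units (SE 0.07, edgeR adjusted p = 8.6e-10). Leaving out any one library gave -1.91 to -1.76.

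Osmr (ENSRNOG00000033192, chromosome 2, 56110777 to 56151531, minus strand), the chain that joins gp130 in the oncostatin M receptor, had 655, 716 and 669 counts under TNF-α alone. It had 250, 231 and 204 counts with EMO, so the groups were apart. Normalized counts were 664 ± 29.9 and 234 ± 25.1 (SD, n = 3 each), 2.84-fold lower with EMO, or -1.50 in log2 units (SE 0.10, edgeR adjusted p = 1.0e-07).

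Il11ra1 (ENSRNOG00000015068, chromosome 5, 58151985 to 58159072, plus strand) encodes the ligand-binding chain for IL-11. It had 2247, 2043 and 2099 counts under TNF-α alone and 850, 945 and 1070 with EMO. The groups were apart, with normalized counts of 2080 ± 110 and 978 ± 107 (SD, n = 3 each), 2.13-fold lower with EMO. The log2 fold change was -1.09 (SE 0.09, 95% interval -1.28 to -0.90, edgeR adjusted p = 4.1e-07), and without TNF-α+EMO replicate 1 it was -0.99, past the test but no longer a DEG. The gene's end overlaps the end of Ccl27, which lies on the other strand from 58163584 to 58159066 and held 9 to 33 counts, and the strand setting of the counting is not given in the sources used here.

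Il6r (ENSRNOG00000020811, chromosome 2, 189205701 to 189254628, minus strand), the ligand-binding chain for IL-6, had 431, 436 and 471 counts under TNF-α alone. It had 494, 471 and 393 counts with EMO, and the groups overlapped. The normalized counts of 436 ± 20.2 and 464 ± 56.8 (SD, n = 3 each) differed by 0.09 in log2 units (SE 0.10, edgeR adjusted p = 0.44), and its 95% interval ran from -0.14 to 0.32. This interval leaves out a DEG-sized change in either direction, but it does not show that the levels were equal. Without TNF-α+EMO replicate 3, the lowest library of its group for Il6r, the log2 fold change was 0.21 and passed the test (adjusted p = 0.045 by edgeR).

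Lifr (ENSRNOG00000011696, chromosome 2, 56426367 to 56489415, plus strand), the chain through which LIF signals, had 0, 1 and 2 counts under TNF-α alone and 0 in every library with EMO. All 6 libraries were at or under the floor, so no fold is given. The receptor chain of LIF was thus at the limit of detection in the same libraries in which Lif had 406 to 1742 counts. Of the 6 members whose groups did not overlap in normalized counts (6 of the 7 tested), 3 were higher and 3 lower with EMO, where 82.9% of all tested genes did not overlap.

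**Figure D2:**
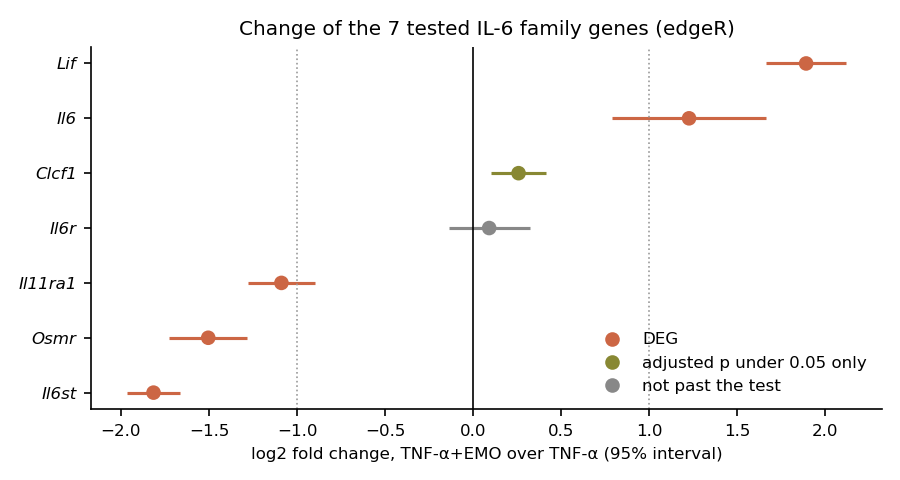
Log2 fold change of TNF-α+EMO over TNF-α (x axis) for the 7 tested members, with 95% intervals from edgeR (3 libraries a group) and dotted lines at the DEG threshold of 1 in each direction. Lif and Il6 lie at 1.89 and 1.23, Il11ra1, Osmr and Il6st at -1.09, -1.50 and -1.82, and Clcf1 and Il6r at 0.26 and 0.09.

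Levels of different genes were compared per length, as TMM-scaled CPM per kb of deposited gene length. In the TNF-α group, the order was Il6st (192 ± 8.0), Il11ra1 (70.7 ± 3.75), Clcf1 (22.5 ± 0.48), Osmr (13.4 ± 0.60), Lif (11.1 ± 0.94), Il6r (5.52 ± 0.26), Il6 (3.99 ± 0.92), Il11 (0.157 ± 0.13) and Lifr (0.011 ± 0.011), as mean ± SD with n = 3. No neighbours in that order overlapped between libraries. With EMO, the order was Il6st (54.5 ± 3.68), Lif (41.0 ± 4.81), Il11ra1 (33.2 ± 3.64), Clcf1 (26.9 ± 1.00), Il6 (9.34 ± 0.46), Il6r (5.87 ± 0.72), Osmr (4.71 ± 0.51), Il11 (0.106 ± 0.035) and Lifr, which was at 0. Here Il6r and Osmr overlapped and could not be ranked, and the other neighbours did not overlap. Lif moved from rank 5 to rank 2, and Osmr from above Lif and Il6 to below both.

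Set against each other within each library, receptor mRNA was lower relative to ligand mRNA with EMO. The summed level of the 5 receptor genes was 281 ± 6.67 CPM per kb in the TNF-α group and 98.3 ± 1.81 with EMO, whereas that of the 4 ligand genes was 37.7 ± 0.95 and 77.3 ± 6.21 (SD, n = 3 each). The ratio of receptor to ligand level was 7.65, 7.46 and 7.31 under TNF-α alone and 1.38, 1.29 and 1.17 with EMO. These ratios did not overlap and are a description of the same counts, with no test of their own.

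Within the receptors, Il6st made up 68.1% ± 1.47 of the summed level without EMO and 55.4% ± 2.94 with it, and Il11ra1 25.1% ± 1.57 and 33.8% ± 3.98. Osmr kept nearly the same share, 4.75% ± 0.14 and 4.79% ± 0.48, which overlapped between the groups. Il6r rose as a share from 1.96% ± 0.13 to 5.97% ± 0.71 while its own level did not pass the test (SD, n = 3 each). The ratio of Il6st to Il6r was 35.1, 37.3 and 32.1 under TNF-α alone and 9.10, 8.66 and 10.2 with EMO.

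Within the ligands, Clcf1 had the largest share without EMO, 59.7% ± 2.66, and Lif with it, 52.9% ± 1.92 against 29.3% ± 1.92 before (SD, n = 3 each). The ratio of Lif to Clcf1 was 0.465, 0.546 and 0.466 under TNF-α alone and 1.41, 1.51 and 1.66 with EMO, so the order of the pair was the opposite in the 2 groups. Il6 kept 10.6% ± 2.32 and 12.1% ± 0.41 of the summed ligand level, and these shares overlapped.

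**Figure D3:**
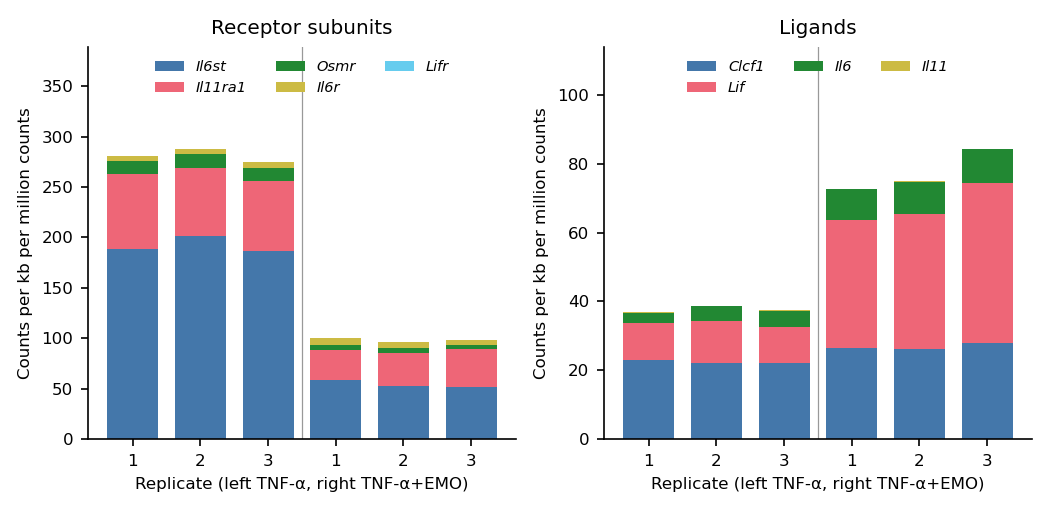
Stacked levels (y axis, TMM-scaled CPM per kb, from 0) of the receptor genes (left) and ligand genes (right) in each library, with TNF-α replicates 1 to 3 left of the line in each panel and TNF-α+EMO replicates 1 to 3 right of it. Receptor bars are lower with EMO, mostly in Il6st, and ligand bars are higher, mostly in Lif, while Lifr and Il11 are too low to see.

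The genes whose pattern over the 6 libraries was nearest to that of Il6 and Lif were found by the root mean square difference of log2 CPM, each gene centred on its own mean. For Il6 they were Txnl4b (0.090), Tti2 (0.105) and Stradb (0.126), with log2 fold changes of 1.08, 1.28 and 1.22. For Lif they were Spns1 (0.063), Scamp4 (0.067) and Tceal9 (0.068), with log2 fold changes of 1.91, 1.82 and 1.91. With 2 groups and 6442 DEGs, genes of a like fold change score as near by construction, and the measure says nothing of shared control.

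The rest of the pathway was read from a list of 62 genes in 9 roles, of which 59 were analysed here and 54 tested. Of these 54, 24 were DEGs lower with EMO (44.4%, against 27.8% of all tested genes) and 5 were DEGs higher (9.26%, against 19.5%). Their median log2 fold change was -0.83. The list was chosen with earlier results of these data known. These shares, and those of single roles given below, are therefore a description and not a test of the pathway. All 29 DEGs stayed DEGs with the same sign in each of the 13 alternative fits that tested them. Il27, among the higher DEGs, and Fos, Lbp and Ptpn6, among the lower, did not reach 10 counts in every library of the group where they were low. They therefore met the count filter only with the group where they were high, and their stability over fits says little. Il27 and Fos were tested in 10 of the 13 fits. The named genes are those with the largest absolute changes in each role, and a gene named beside them was chosen after its values were seen.

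Among the other ligand genes, 5 were tested. Ebi3, the subunit that IL-27 shares with IL-35, had 192, 156 and 163 counts without EMO and 25, 12 and 19 with it, a change of -3.11 in log2 units (SE 0.26, edgeR adjusted p = 8.0e-07). Il27, the other subunit of IL-27, was named after its values were seen. It had 0 counts throughout the TNF-α group, whereas the libraries with EMO held 19, 20 and 20, which makes it at least 6.87-fold higher against a floor of 3 counts per library. Cntf and Ctf1 did not pass the test, and Osm, the ligand of Osmr, had 0 counts in all 6 libraries. None of the other receptor genes, Cntfr, Il27ra and Il31ra, had enough counts to test.

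All 7 kinase and STAT genes passed the test, where 80.9% of all tested genes passed. Of the 7, 5 were DEGs lower with EMO (71.4%, against 27.8% of all tested genes). Stat5b and Stat5a, which cytokine receptors of several families activate, fell, with log2 fold changes of -1.46 and -1.37. Stat3, the main transducer of gp130, was lower, at a log2 fold change of -0.97 (SE 0.05, edgeR adjusted p = 1.9e-08), just under the DEG threshold, from 5873, 5993 and 5843 counts to 2840, 2890 and 2865. Jak1, the kinase that gp130 chiefly uses, was higher by 0.38 (SE 0.08, edgeR adjusted p = 8.6e-04), whereas Jak2 and Tyk2 fell (-1.36 and -1.05). Stat3 and the 3 kinase genes were named after their values were seen. Of 5 adaptor genes, Shc1 was the only DEG, at -1.14, a share under the 47.3% of all tested genes.

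Of 8 inhibitor genes, 3 were DEGs, a share under the 47.3% of all tested genes, and all 3 were lower. Socs3, the inhibitor that binds gp130, had 270, 216 and 215 counts without EMO and 60, 57 and 68 with it, a change of -1.85 in log2 units (SE 0.17, edgeR adjusted p = 1.3e-06). Cish fell too (-2.03), as did Ptpn6, a phosphatase found mainly in blood cells (-3.33). Socs2, named after its values were seen, was higher by 0.95 and not a DEG. Socs3 and Il6st thus fell together, while Il6 and Lif rose.

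Soluble IL-6Rα arises when the receptor is cut from the cell surface, chiefly by ADAM10 and ADAM17. Of 4 genes of this machinery, 3 were DEGs lower with EMO, where 27.8% of all tested genes were. With only 4 genes, this count is a description. Adam17 was lower, at a log2 fold change of -1.87 (SE 0.07), from 5501, 5709 and 5417 counts to 1527, 1483 and 1317, and Adam10 fell as well (-1.15). Rhbdf1 and Rhbdf2 encode iRhoms, which carry ADAM17 to the cell surface. Rhbdf1 fell (-1.85), and Rhbdf2, named after its values were seen, was higher by 0.94. The level of their substrate gene Il6r did not pass the test.

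Of 9 genes for factors known to act at the Il6 promoter, 4 were DEGs, a share near the 47.3% of all tested genes. Jun, which binds AP-1 and CRE-like sites, had 1101, 953 and 1044 counts without EMO and 3480, 3627 and 4083 with it, a change of 1.92 in log2 units (SE 0.08, edgeR adjusted p = 2.2e-09). Nfkbiz, whose product IκBζ is needed for Il6 induction in several cell types, fell (-2.81, SE 0.11), and so did Cebpd (-2.30). Fos, with a mean under 50 counts and named after its values were seen, fell (-3.53). It had 41, 43 and 53 counts without EMO and 4, 1 and 6 with it, near the floor. Cebpb and Nfkb1, also named after their values were seen, passed the test at -0.71 and -0.91 but were not DEGs. Rela, an NF-κB subunit named in the same way, had 4374, 4146 and 4038 counts without EMO and 4238, 4230 and 4362 with it and did not pass (log2 fold change 0.10, adjusted p = 0.13 by edgeR).

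Il6 mRNA is short-lived, and of 6 genes for proteins that act on its stability, 3 were DEGs, a share near the 47.3% of all tested genes. Zc3h12a, which encodes Regnase-1, a nuclease that degrades Il6 mRNA, had 1705, 1625 and 1579 counts without EMO and 400, 352 and 466 with it, a change of -1.94 in log2 units (SE 0.10, edgeR adjusted p = 1.2e-08). Zfp36l1, a destabilizing protein that binds AU-rich elements, fell more (-4.21). Arid5a, which stabilizes Il6 mRNA against Regnase-1, had 184, 155 and 141 counts without EMO and 500, 572 and 557 with it, a change of 1.83 in log2 units (SE 0.12, edgeR adjusted p = 8.8e-08). Elavl1 did not pass, and Zfp36, named after its values were seen, passed at -0.92.

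Of 10 tested genes that STAT3 is known to induce, 5 were DEGs lower with EMO and 2 higher. Over all tested genes, 27.8% were DEGs lower and 19.5% higher, so the share of higher ones was near that of all genes. Lbp and Hp, acute phase genes, fell (-7.28 and -5.36). Lbp went from 1112, 1225 and 972 counts to 11, 3 and 6, so the size of its change rests on counts near the floor. Hp had 581, 544 and 528 counts without EMO and 11, 12 and 15 with it. Ccl2, a chemokine gene, fell (-4.39) from 29731, 30296 and 30856 counts to 1304, 1382 and 1443. Bcl3 and Timp1 were the other 2 lower DEGs, and Pim1 and Vegfa, the 2 higher ones, rose (1.28 and 1.75). These 4 were named after their values were seen. All of these genes also answer to other signals, NF-κB among them. Lcn2 and Il4r, also named after their values were seen, did not pass the test (log2 fold changes 0.07 and -0.17).

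**Figure D4:**
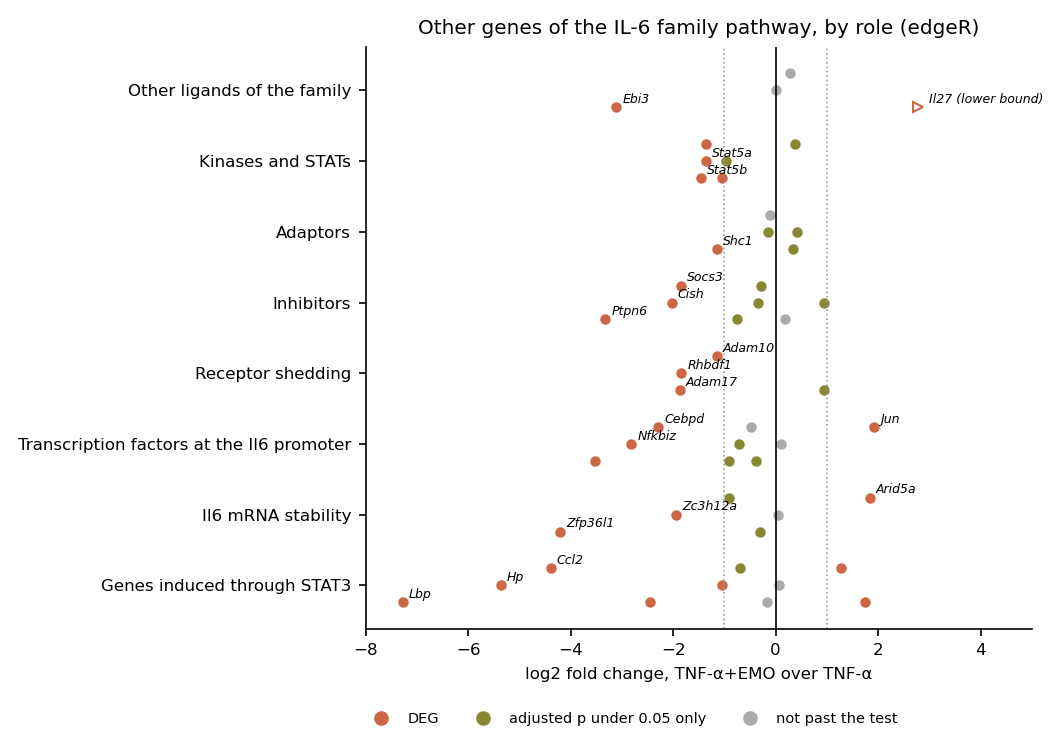
Log2 fold change of TNF-α+EMO over TNF-α (x axis, edgeR, 3 libraries a group) for tested genes of the list, 1 point a gene, grouped by role, with dotted lines at the DEG threshold of 1. Most DEGs lie to the left, and Jun, Arid5a, Pim1 and Vegfa to the right, while the open triangle is the lower bound for Il27, which had 0 counts in every TNF-α library.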

How the data were processed

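RNA of 3 TNF-α and 3 TNF-α+EMO cultures of rat RA-FLS was sequenced as poly(A)-selected paired-end libraries. Reads were checked with FastQC, cleaned with Trimmomatic and aligned with HISAT2 to Rnor_6.0, according to the submitters' processing notes and the study's methods. The counting program, its strand setting and the annotation version are not given in the sources used here. The authors deposited raw counts per gene and library, without normalization, in a table of 34156 genes. The 6 FPKM columns and the 5 columns of the authors' own comparison (group means, fold change and p-values) in that table were not used.

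The 13614 genes that reached 10 counts in 3 or more libraries were normalized by TMM and compared with edgeR 4.0.16 in R 4.3.3 (robust quasi-likelihood F test, group as the only term, Benjamini-Hochberg adjustment over all tested genes). Standard errors were taken as the absolute log2 fold change divided by the square root of F. The 16813322 to 17794455 counts per library set a floor of 3 counts, which covers counting error only. The alternatives were DESeq2 1.42.0, other normalizations, filters and thresholds, the replicate number as a block and leaving out each library, and the fits were tested on simulated data.

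The 9 members and the other gene lists were chosen with earlier results of these data known. Named genes are all members and, in each role, up to 3 DEGs with the largest absolute change, no overlap between groups and a mean of at least 50 counts, together with the 3 tested genes most like Il6 and Lif with a mean of at least 50 counts. Promoter sequences are from RefSeq on GRCr8, and coordinates of genes are as deposited. Of the wider list, 2 genes are counted but not reported here by name or drawn.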

Additional observations from a re-analysis of the deposited data

How the results depend on the processing

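Over 15 alternatives, the members called as DEGs numbered 2 higher and 3 lower except where 1 library was left out or the fold change threshold was dropped. Leaving out 1 library gave 1 to 2 higher and 2 to 3 lower members, where Il6 was not a DEG without TNF-α replicate 1 (log2 fold change 0.98) and Il11ra1 was not without TNF-α+EMO replicate 1 (-0.99). With an adjusted p under 0.05 and no fold change threshold, 3 members were higher and 3 lower, 10 genes of the wider list were higher against 5 and 35 lower against 24, and 11008 genes passed in all against 6442 DEGs. Il6, Lif, Il11ra1, Il6st and Osmr passed the test with the same sign in all 13 alternative fits, with log2 fold changes of 0.98 to 1.29, 1.77 to 1.98, -1.20 to -0.99, -1.93 to -1.76 and -1.62 to -1.40. Clcf1 lost its call in 4 of the 13 fits, with values from 0.14 to 0.30. Il6r changed sign with library totals alone (-0.0218) and ranged from -0.0034 to 0.21 when 1 library was left out, and it passed only without TNF-α+EMO replicate 3. Library totals alone moved the median log2 fold change of all genes from -0.01 to -0.125, and relative to that median Il6r stood at 0.10 with either scaling. The replicate number as a block gave the same 2 higher and 3 lower members, 5 and 24 genes of the wider list, and 6421 DEGs in all. The numbers were not taken to pair the libraries, since nothing in the labels says that a number marks a shared culture or day. Deviations of same-numbered libraries correlated at 0.02, -0.01 and 0.07 across genes, and those of differently numbered ones at -0.07 to 0.05. Of 6 libraries, 3 correlated best with their own number. With so few libraries, these values do not decide whether the numbers mark pairs. Il11 and Lifr had too few counts to be tested in the main fit. With no filter on low counts, their adjusted p was 0.57 and 0.21 by edgeR.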
